A study of Mus musculus with 8 samples.

Results

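The 8 genes described here, Bnip3, Ndrg1, Egln3, Ankrd37, Ddit4, Higd1a, P4ha1 and Ndufa4l2, are transcriptional targets of the hypoxia response, and they were followed through the endothelium of mouse melanomas cell by cell. They were chosen by name, as 8 of the 28692 genes in the deposited matrix, and all 8 were detected in both endothelial sorts. The tumours grew from MT-ret melanoma fragments (a ret oncogene under a metallothionein promoter drives this mouse melanoma) placed on the flank of C57BL/6N animals, 10 in all, and flow sorting of the pooled tumours gave 10000 cells of the blood endothelium (BEC) and 10000 of the lymphatic endothelium (LEC). Droplet libraries were made with the 10x Chromium 3′ kit (v2), in which each captured transcript carries a unique molecular identifier (UMI). The 2 groups share the strain and the tumour, but each is its own sorted fraction with its own libraries. No tumour-free endothelium was analysed here, so the levels below describe tumour endothelium only. The 4 libraries listed per sort are not told apart in the cell names, so each sort is 1 pooled sample and no difference has a replicate check.

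Cells sense oxygen through the prolyl hydroxylases, which mark the alpha subunits of hypoxia-inducible factor (HIF) for destruction by the von Hippel-Lindau (Vhl) ubiquitin ligase while oxygen is present. When oxygen is scarce the alpha subunit is spared, pairs with Arnt and binds a short core motif, ACGTG or GCGTG, near its target genes. The 8 genes act at different points of that response: Egln3 is itself one of the prolyl hydroxylases, Bnip3, Higd1a and Ndufa4l2 encode mitochondrial proteins, Ddit4 restrains the mTORC1 growth pathway, P4ha1 is a catalytic subunit of the enzyme that hydroxylates collagen, and Ndrg1 and Ankrd37 are known hypoxia-induced genes. Growing tumours are known for poorly perfused regions, where HIF target genes are switched on in tumour and vessel cells alike.

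In the GRCm38 assembly (GENCODE M21, whole gene spans) the 8 protein-coding genes are Bnip3 at chr7:138890836-138909519 (minus strand), Ndrg1 at chr15:66929318-66969640 (minus strand), Egln3 at chr12:54178981-54203860 (minus strand), Ankrd37 at chr8:45996902-46005707 (minus strand), Ddit4 at chr10:59949669-59951834 (minus strand), Higd1a at chr9:121848563-121858362 (minus strand), P4ha1 at chr10:59323296-59373304 (plus strand) and Ndufa4l2 at chr10:127514967-127517154 (plus strand). Ddit4, P4ha1 and Ndufa4l2 share chromosome 10. Promoter windows running from 250 bases upstream to 50 downstream of the RefSeq start were held for 6 of the 8 genes (GRCm38.p6), and Ndrg1 and Ndufa4l2 were not among them. The upstream 250 bases were searched on both strands for the core motifs ACGTG and GCGTG, which appear as CACGT and CACGC where they lie on the other strand. All 6 windows held at least 1 core motif and 5 of the 6 held ACGTG. Over the 27025 genes with such a window, 38.6% held either motif and 16.6% held ACGTG, and among the 7446 genes whose promoter was at least 60% G or C the share with either motif was 64.2%. The 6 promoters were between 50.8% and 72.4% G or C. A match is a description of the letters and not a binding site. Printed here are the 3 promoters whose genes differed most between endothelial subsets, followed by Ddit4, which did not follow the others. Each is printed 5′ to 3′ in the direction of transcription, in lower case with the core motifs in capitals, at chr7:138909517-138909643 (minus strand), chr12:54204079-54204123 (minus), chr8:45999851-46000100 (minus) and chr10:59951861-59951977 (minus).
Bnip3: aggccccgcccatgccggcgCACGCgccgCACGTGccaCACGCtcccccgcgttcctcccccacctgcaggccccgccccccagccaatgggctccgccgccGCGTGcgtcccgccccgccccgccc
Egln3: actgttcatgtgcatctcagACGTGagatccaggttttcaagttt
Ankrd37: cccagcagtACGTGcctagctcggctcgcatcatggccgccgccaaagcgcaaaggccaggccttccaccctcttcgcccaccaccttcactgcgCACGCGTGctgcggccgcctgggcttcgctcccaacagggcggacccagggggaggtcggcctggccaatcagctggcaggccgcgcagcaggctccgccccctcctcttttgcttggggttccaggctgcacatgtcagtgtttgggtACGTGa
Ddit4: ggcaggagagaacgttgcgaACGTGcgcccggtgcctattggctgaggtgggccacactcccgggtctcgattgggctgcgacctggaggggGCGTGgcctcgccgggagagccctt
The Bnip3 stretch held 5 matches, among them the 6-letter palindrome CACGTG, which is read on both strands and so counts as 2 matches, at 108 and 107 bases upstream of the start. Egln3 held a single match 229 bases upstream. Ankrd37 held 4, from 241 to 6 bases upstream, and Ddit4 held 2, at 187 and 115 bases upstream. The RefSeq starts of Bnip3, Ankrd37, Ddit4 and Higd1a lie inside the gene spans given above, and the upstream matches of Ankrd37 and Higd1a do too. Higd1a held 2 matches, both GCGTG, at 70 and 66 bases upstream, and P4ha1 held 3, from 163 to 16 bases upstream.

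The BEC sort held 3228 cells with 71304111 UMIs (median 19416 per cell) and the LEC sort 4407 cells with 59273049 UMIs (median 11000 per cell). Levels are UMIs summed over a set of cells and given as UMIs per 1000000 UMIs of that set (CPM) with exact Poisson intervals, ratios have exact conditional binomial intervals, while for shares of cells they are Clopper-Pearson intervals, at the 95% level throughout and covering counting error only. Cells were assigned to a lineage by markers after each cell had been thinned to 5000 UMIs: BEC-gated cells (Flt1, Nrp1, Esam, Cd93, Emcn, Mcam) made up 97.0% of the BEC sort (3131 cells) and LEC-gated cells (Lyve1, Pdpn, Prox1, Mmrn1, Reln) 80.3% of the LEC sort (3537 cells). All 5 LEC markers were called apart with the LEC sort higher, and all 6 BEC markers with the LEC sort lower, by the rule given next. The LEC sort also held 266 cells with melanocytic markers (6.04%), and 34 cell barcodes occurred in both sorts. A gene is called apart below when its CPM differed at least 2-fold with 10 CPM or more in the higher group.

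The hypoxia response genes were higher in lymphatic than in blood endothelium. Together the 8 genes took 1268 CPM in the LEC sort against 607 CPM in BEC, a 2.09-fold difference (2.06 to 2.11), and 5 of the 8 were at least 2-fold higher in LEC, against 11.7% of the 8307 genes compared. None was at least 2-fold lower, against 8.76% of all genes. The median log2 ratio of the 8 was 1.07, beside 0.10 over all genes compared. Summed levels weigh the most abundant members most, here Higd1a (438 against 199 CPM) and Ndrg1 (310 against 154 CPM).

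**Figure D1:**
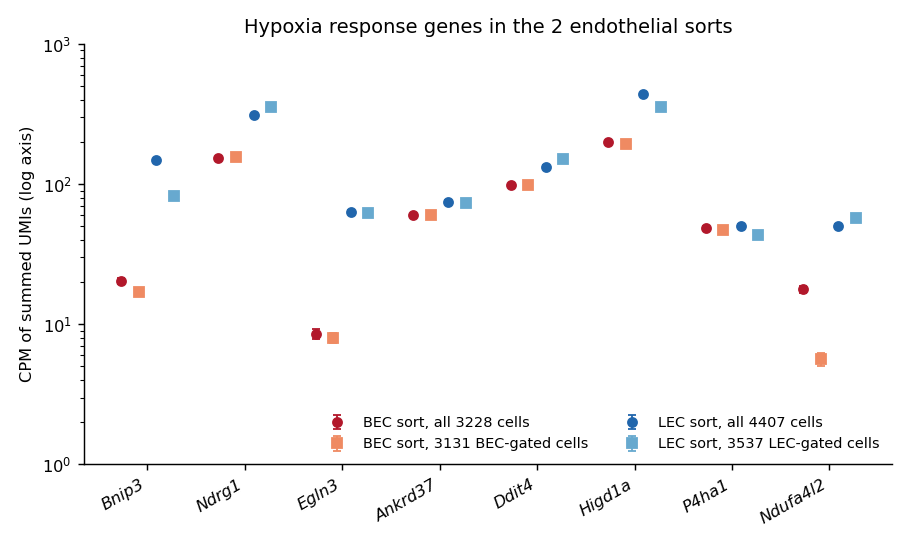
Levels of the 8 genes, in CPM of summed UMIs on a log axis, in all cells of each sort (circles) and in the cells gated to the sort's own lineage (squares), with 95% Poisson intervals that are mostly smaller than the symbols. Egln3 (63.7 against 8.55 CPM) and Bnip3 (148 against 20.3 CPM) lie farthest apart between the whole sorts, and Ndufa4l2 between the gated cells (57.7 against 5.62 CPM).

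Egln3 and Bnip3 had the largest ratios between the whole sorts, with overlapping intervals, and Ndufa4l2 the largest between lineage-gated cells. Egln3, which is both a HIF prolyl hydroxylase and a HIF target, stood at 8.55 CPM (7.89 to 9.26) in the BEC sort and 63.7 CPM (61.7 to 65.8) in the LEC sort. Its ratio was 7.44 (6.83 to 8.12). In cells gated to their own lineage the ratio was 7.83 (7.14 to 8.59), no smaller than in the whole sorts. After thinning, 2.20% of BEC-gated cells (1.72 to 2.78%) and 14.9% of LEC-gated cells (13.7 to 16.1%) held an Egln3 UMI.

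The 3 mitochondrial genes were also higher in LEC, but the cells that carried them differed. Bnip3, a mitophagy receptor of the outer mitochondrial membrane, stood at 20.3 CPM in the BEC sort and 148 CPM in the LEC sort, a ratio of 7.27 (6.88 to 7.70). Melanocytic-gated cells held 36.8% of all Bnip3 UMIs of the LEC sort, at 433 CPM (418 to 448), and in lineage-gated cells the ratio was 4.81 (4.50 to 5.14), from 82.3 against 17.1 CPM. Higd1a, an inner-membrane protein that associates with respiratory chain complexes, stood at 199 CPM in the BEC sort and 438 CPM in the LEC sort, a ratio of 2.20 (2.15 to 2.24). It was likewise high in melanocytic-gated cells, at 817 CPM, and its ratio between lineage-gated cells was 1.84 (1.80 to 1.89), under the 2-fold mark.

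Ndufa4l2, a relative of the respiratory chain subunit Ndufa4, behaved the other way. It stood at 17.8 CPM in the BEC sort and 50.1 CPM in the LEC sort, a ratio of 2.82 (2.64 to 3.01). In the BEC sort, however, 68.0% of its UMIs (861 of 1266) came from 36 cells with stromal markers, where it reached 1200 CPM and was detected in 88.9% of cells. BEC-gated cells held only 5.62 CPM (5.07 to 6.21) and LEC-gated cells 57.7 CPM, a ratio of 10.3 (9.22 to 11.5). In melanocytic-gated cells of the LEC sort it was 0.942 CPM, from 7 UMIs in 266 cells. Of the 36 stromal-gated cells, 30 also passed the BEC marker rule, and with such cells kept in both lineages the log2 ratio of Ndufa4l2 was 1.75 in place of 3.15.

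The remaining 4 genes differed less. Ndrg1, a stress-inducible cytosolic protein, stood at 154 CPM in BEC against 310 CPM in LEC, a ratio of 2.01 (1.96 to 2.06) that lay on the 2-fold mark and was 2.28 (2.23 to 2.34) between lineage-gated cells. Ddit4, the mTORC1 inhibitor, had a ratio of 1.36 (1.31 to 1.40), from 133 against 98.5 CPM, and Ankrd37, an ankyrin repeat protein, one of 1.25 (1.20 to 1.31), from 75.0 against 59.9 CPM. P4ha1 stood at 50.4 CPM in LEC against 48.6 CPM in BEC, and its ratio interval (0.989 to 1.09) included 1. Between lineage-gated cells P4ha1 was slightly lower in LEC, at 0.916 (0.865 to 0.970).

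Restricting both sorts to their own lineage left 4 of the 8 genes at least 2-fold higher in LEC (Bnip3, Ndrg1, Egln3 and Ndufa4l2), against 11.5% of 8258 genes, and none at least 2-fold lower, against 9.65%. Their sum was 1180 against 584 CPM, a ratio of 2.02 (1.99 to 2.05). Melanocytic marker transcripts reached 133 CPM in LEC-gated and 23.8 CPM in BEC-gated cells, against 20498 CPM in melanocytic-gated cells of the LEC sort. Scaled by these markers, RNA in the proportions of the melanocytic-gated cells would make up 3.42% of the Bnip3 level of LEC-gated cells. The part would be smaller for each of the other 7. Whether free tumour RNA had those proportions was not tested, and doublets were not called.

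A small set of cells carried the markers of 1 lineage in the sort of the other, and a few of them held much of the signal. The LEC sort held 95 BEC-gated cells, in which the 8 genes summed to 925 CPM, 1.58-fold (1.51 to 1.66) above the 584 CPM of BEC-gated cells in the BEC sort. Without the cell with most UMIs of the 8 genes the sum was 772 CPM, a ratio of 1.32 (1.25 to 1.39). Bnip3 was 88.7 CPM (75.6 to 103), 5.18-fold (4.37 to 6.11) above BEC-gated cells of the BEC sort, but 68 of its 162 UMIs came from that cell. Without it Bnip3 was 52.5 CPM, a ratio of 3.07 (2.46 to 3.79). The same cell held 37 of the 61 UMIs of Egln3, and without it the ratio of Egln3 was 1.68 (1.07 to 2.53) in place of 4.18 (3.16 to 5.46).

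**Figure D2:**
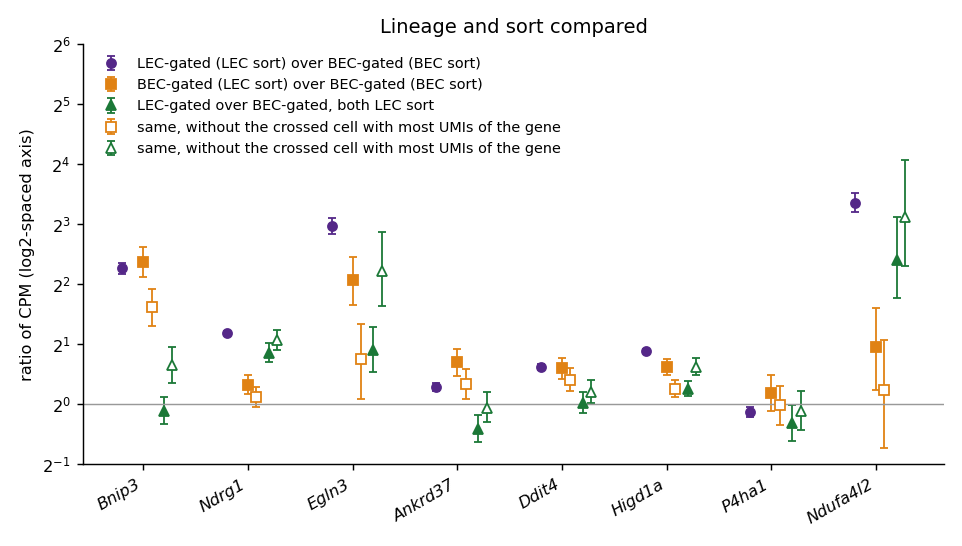
Ratios of CPM on a log2-spaced axis for the 8 genes, with 95% intervals, for 3 comparisons: LEC-gated over BEC-gated cells of their own sorts, BEC-gated cells of the LEC sort over BEC-gated cells of the BEC sort, and LEC-gated over BEC-gated cells within the LEC sort. Open symbols leave out, for each gene, the crossed cell with most of its UMIs. For Egln3 this takes the second comparison from 4.18 to 1.68 and the third from 1.87 to 4.66.

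Within the LEC sort, LEC-gated over BEC-gated cells gave ratios that moved with single cells in the same way (leaving out the top cell was chosen after seeing the data). Egln3 was 1.87-fold higher (1.45 to 2.45) in LEC-gated cells, and 4.66-fold (3.12 to 7.28) without the BEC-gated cell with most of its UMIs. Ndufa4l2 was 5.27-fold higher (3.40 to 8.64), and 8.66-fold (4.95 to 16.8) without its own top cell, which held 8 of 20 UMIs. Bnip3 had a ratio of 0.928 (0.792 to 1.09) with that 1 cell and 1.57 (1.28 to 1.94) without it, so its direction rests on that cell. Ndrg1 was 1.82-fold (1.64 to 2.02) higher, and the ratio of Ddit4 was 1.02 (0.900 to 1.15). Ankrd37 was at 0.753 (0.647 to 0.880), and at 0.963 (0.811 to 1.15) without its top cell.

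In the reverse direction 10 LEC-gated cells were found in the BEC sort. They held 640 CPM of the 8 genes (525 to 773) against 1180 CPM in LEC-gated cells of the LEC sort. Egln3, with 10 UMIs, was 59.3 against 62.5 CPM there, and Ddit4, with 24 UMIs, was 142 against 152 CPM. Bnip3 had 1 UMI, and Ankrd37 and Ndufa4l2 had none, where the interval for a count of 0 reaches 21.9 CPM. Whether the crossed cells came from the same vessels as the rest, or held material from neighbouring cells, was not tested.

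Genes that respond to tissue dissociation, which are immediate early and heat-shock genes, were also higher in LEC. Of the 9 listed 8 reached 10 CPM, and between lineage-gated cells 5 were 2-fold or more above BEC and none below (Fos, Fosb, Jun, Egr1 and the heat-shock gene Dnajb1), with Fos at 3947 against 1341 CPM. Over all genes 11.5% were above and 9.65% below by that rule. Handling of the sorts and lineage cannot be told apart here.

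The genes of the HIF machinery differed in direction between the sorts. Of its 8 listed genes 7 reached 10 CPM in either sort. Hif1a, the widely expressed alpha subunit, was 92.3 CPM in LEC and 102 CPM in BEC, and Epas1, the endothelial alpha subunit HIF-2 alpha, was 60.4 against 184 CPM, 0.327 of the BEC level. Egln1, the main prolyl hydroxylase of most tissues, was 25.4 against 12.1 CPM, past the 2-fold mark, and Arnt 23.0 against 12.3 CPM, a ratio of 1.87. Egln2 (65.8 CPM in both), Vhl (13.1 against 8.63 CPM) and Hif1an (10.4 against 10.5 CPM) were less than 2-fold apart, and Hif3a had 0 UMIs in either sort. Between lineage-gated cells Arnt was past the 2-fold mark, at 25.4 against 12.5 CPM (2.04-fold, 1.86 to 2.23). Egln1 was at 1.98-fold there, and Epas1 at 0.350 of the BEC level.

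Paralogs showed which members of each family carried the difference. Ndufa4, the constitutive relative of Ndufa4l2, was 733 CPM in LEC and 708 CPM in BEC. Bnip3l, the other HIF-induced mitophagy receptor, was 317 against 230 CPM, a ratio of 1.38, and Higd2a was 246 against 293 CPM, 0.840 of the BEC level. P4ha2 was 31.3 against 32.6 CPM. Ndrg2 was 29.3 against 3.81 CPM, a ratio of 7.68, Ndrg3 was 37.0 against 27.6 CPM, and Ndrg4 was 2.73 against 0.673 CPM. Ddit4l, Higd1b, P4ha3 and Higd1c were all under 5 CPM in both sorts, with Higd1c at 0 UMIs. In all, 2 of the 8 paralogs that reached 10 CPM (Ndrg2 and Egln1) were 2-fold or more above BEC, against 11.7% of all genes. None was 2-fold or more below, against 8.76%. Between lineage-gated cells Ndrg2 alone was 2-fold or more above, at 10.2 against 0.956 CPM, with Egln1 at 1.98-fold. The share over all genes there was 11.5%.

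Other hypoxia targets were higher in LEC too, while glycolytic enzymes were not. Of 19 further targets 14 reached 10 CPM, of which 10 were 2-fold or more above BEC and none below. Over all genes 11.7% were above and 8.76% below, and 11.5% and 9.65% between lineage-gated cells. Between lineage-gated cells 7 of 13 were 2-fold or more above BEC and Pdk1 was below, with Mif at 558 against 222 CPM, Adm at 275 against 144 CPM (1.91-fold) and Fam162a at 230 against 120 CPM (1.92-fold). In the whole sorts Mif, a cytokine, was 710 against 243 CPM, Adm, the vasoactive peptide adrenomedullin, 318 against 147 CPM, Fam162a, a mitochondrial protein, 273 against 125 CPM, and the transcription factor Bhlhe40 112 against 93.3 CPM. Of 13 glycolytic genes at 10 CPM, Tpi1 alone was at least 2-fold higher in LEC, and between lineage-gated cells Pkm was lower (541 against 1281 CPM) and none was higher. The median log2 ratio was 1.20 for the further targets and 0.05 for the glycolytic genes. These lists include glycolytic genes that are themselves known HIF targets.

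Within each lineage most of the 8 genes were highest in 1 subset. Cells were gated on short marker sets, and gates of a lineage could share cells. In LEC the high subset expressed Npy and Pgf, and in BEC it expressed Apln, a gene of sprouting tip cells, with Kit and Tnfrsf9. The markers of these gates are not among the 8 genes, although Pgf and Apln are themselves known to respond to low oxygen. Members and gates were chosen with earlier results of these data known, so the levels in these gates are descriptions and not a test.

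**Figure D3:**
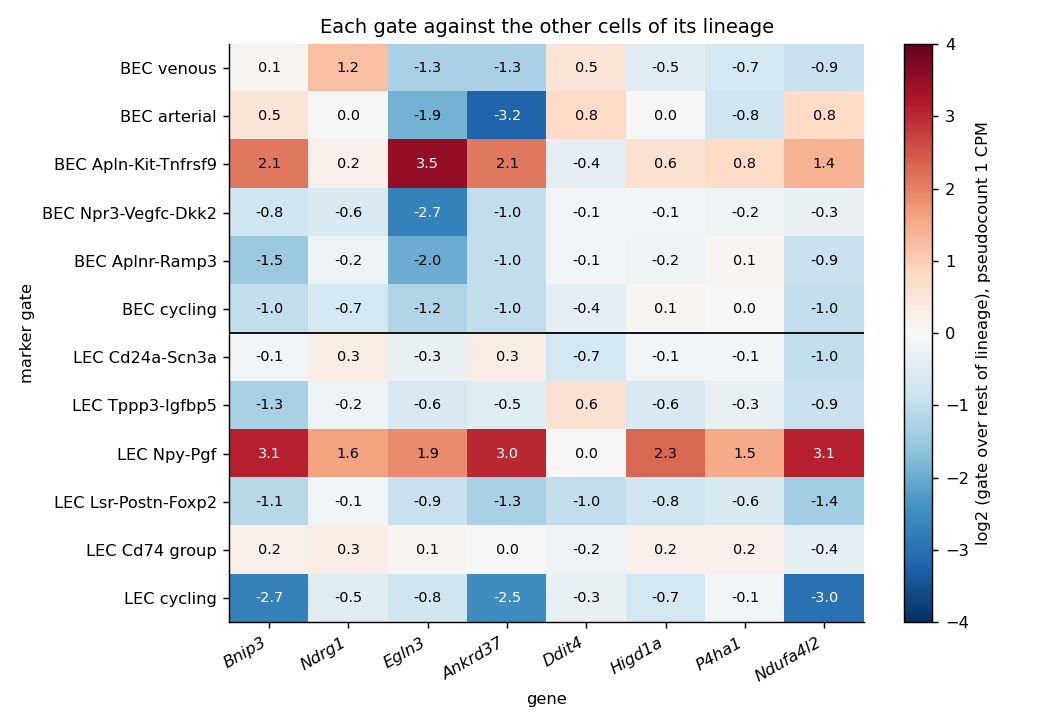
Log2 ratio (pseudocount 1 CPM) of each of the 8 genes in 12 marker gates over the other cells of the same lineage, with BEC gates above the line and LEC gates below it. The Npy-Pgf gate of LEC and the Apln-Kit-Tnfrsf9 gate of BEC are the rows with most genes higher, and in both Ddit4 stays near or below 0.

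In the Npy-Pgf gate 7 of the 8 genes exceeded the other LEC-gated cells by 2-fold or more, against 5.19% of 8117 genes. The gate held 223 cells (6.30% of LEC-gated cells) and took 3937 CPM of the 8 genes against 975 CPM in the rest, a ratio of 4.04 (3.95 to 4.12). The median log2 ratio of the 8 was 2.09, and that of all genes compared was -0.12. Median depth was 11630 UMIs in the gate and 10384 in the rest, and 32 cells lay within 1 UMI of the gate's threshold.

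Bnip3 and Ndufa4l2 showed the largest ratios in this gate. Bnip3 was at 472 CPM (448 to 498) against 53.3 CPM in other LECs, 8.86-fold higher (8.28 to 9.48). Ndufa4l2 was 322 against 38.01 CPM, 8.48-fold higher (7.82 to 9.20), and Higd1a was 1345 against 281 CPM, 4.79-fold higher (4.62 to 4.97). The mitochondrial genes therefore all stood well above their level elsewhere in LEC. Ankrd37 was 394 against 49.5 CPM, 7.94-fold higher (7.38 to 8.54), and Egln3 was 201 against 52.1 CPM, 3.86-fold higher (3.52 to 4.23). Ndrg1 was 941 against 312 CPM, 3.02-fold higher (2.90 to 3.15), and P4ha1, level between the sorts, was 108 against 38.2 CPM, 2.84-fold higher (2.51 to 3.20). Ddit4 was the exception, with 153 CPM (139 to 168) against 152 CPM, a ratio of 1.01 (0.913 to 1.11). These 223 cells held 6.92% of the UMIs of LEC-gated cells but 39.7% of those of Bnip3, 38.7% of Ndufa4l2 and 37.1% of Ankrd37.

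**Figure D4:**
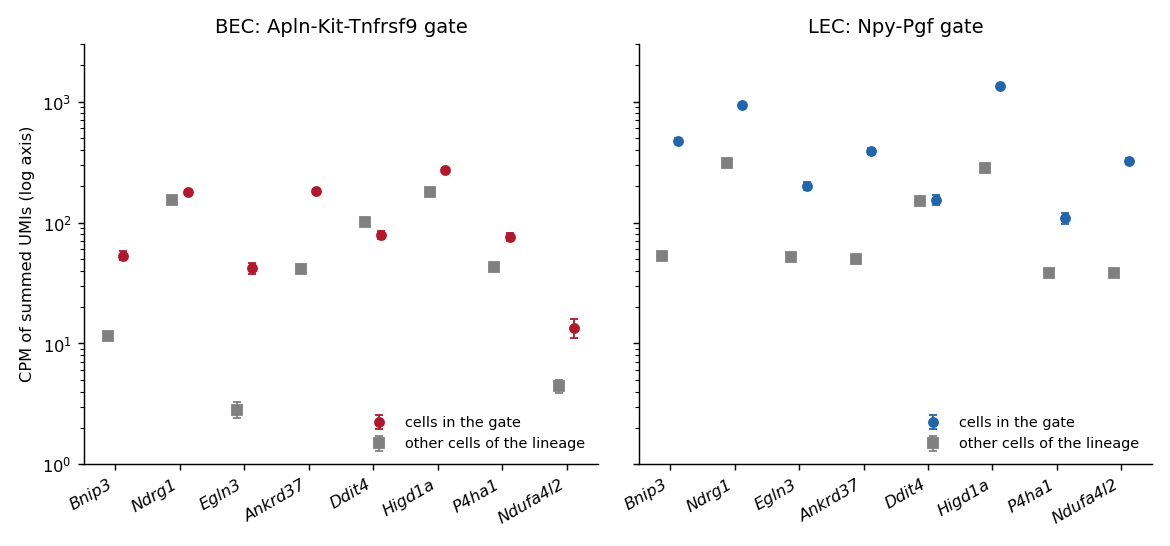
Levels of the 8 genes, in CPM on a log axis with 95% Poisson intervals, in the Apln-Kit-Tnfrsf9 gate of BEC (left) and the Npy-Pgf gate of LEC (right), each beside the other cells of its lineage. In LEC every gene but Ddit4 is well above the rest, while in BEC Egln3 (41.8 against 2.84 CPM), Bnip3 (53.2 against 11.6 CPM) and Ankrd37 (181 against 41.7 CPM) separate most.

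In BEC the Apln-Kit-Tnfrsf9 gate, 361 cells or 11.5% of BEC-gated cells, had 4 of the 8 genes at least 2-fold higher than the rest, against 1.56% of 7516 genes. The 8 genes summed to 894 CPM in the gate and 537 CPM in the rest, a ratio of 1.66 (1.62 to 1.70). The median log2 ratio of the 8 was 1.11, and that of all genes compared was -0.05. Median depth was 22131 UMIs in the gate and 19128 in the rest, and 174 cells lay within 1 UMI of the threshold.

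Egln3 had the largest ratio in this gate, with 41.8 CPM (37.7 to 46.2) against 2.84 CPM (2.43 to 3.30), 14.7-fold higher (12.3 to 17.8), and 69.1% of its UMIs in BEC-gated cells fell in the gate. Bnip3 was 53.2 against 11.6 CPM, 4.58-fold higher (4.07 to 5.15), and Ankrd37 was 181 against 41.7 CPM, 4.34-fold higher (4.08 to 4.62). Ndufa4l2 was 13.4 against 4.44 CPM, 3.02-fold higher (2.41 to 3.75), with 18.9% of its UMIs in the gate in a single cell. P4ha1 (1.77-fold, 1.63 to 1.93), Higd1a (1.51-fold, 1.45 to 1.58) and Ndrg1 (1.16-fold, 1.10 to 1.23) were higher by less than 2-fold. Ddit4 was lower, with 79.2 CPM against 102 CPM, a ratio of 0.778 (0.719 to 0.840).

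The neighbours of the 8 genes in the pathway followed in both gates, more fully in LEC. In the Npy-Pgf gate 16 of 17 further hypoxia targets and all 14 glycolytic genes at 10 CPM exceeded other LECs by 2-fold or more, with Mif at 2194 against 436 CPM, Adm at 929 against 226 CPM, Fam162a at 759 against 190 CPM, Ldha at 2051 against 738 CPM, Pkm at 1844 against 444 CPM, Aldoa at 2633 against 981 CPM and Gapdh at 1455 against 443 CPM. Bhlhe40 was less than 2-fold apart, at 194 against 107 CPM. In the Apln-Kit-Tnfrsf9 gate 5 of 12 further targets and 3 of 13 glycolytic genes were at least 2-fold higher and none lower, with Adm at 549 against 82.5 CPM. Over all genes the shares at least 2-fold higher were 5.19% in the Npy-Pgf gate and 1.56% in the Apln-Kit-Tnfrsf9 gate. The difference between the gates was not tested.

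Members of 1 family differed from each other in the same cells. In the Npy-Pgf gate Ndufa4 was 397 against 720 CPM, a ratio of 0.552, where Ndufa4l2 was 8.48-fold higher, and in the Apln-Kit-Tnfrsf9 gate it was 547 against 730 CPM, a ratio of 0.749. Egln1 was 74.1 against 19.6 CPM and Egln2 34.5 against 68.7 CPM in the Npy-Pgf gate, so the 3 prolyl hydroxylases did not move together. P4ha2 was 120 against 21.02 CPM in the Npy-Pgf gate (5.72-fold) and 59.3 against 27.4 CPM in the Apln-Kit-Tnfrsf9 gate (2.17-fold), and Bnip3l was 649 against 259 CPM (2.51-fold) in the Npy-Pgf gate. Of the alpha subunits, Hif1a was 121 against 86.6 CPM and Epas1 18.4 against 69.1 CPM in the Npy-Pgf gate, and 118 against 99.7 CPM and 141 against 194 CPM in the Apln-Kit-Tnfrsf9 gate. Vhl was 26.5 against 12.4 CPM in the Npy-Pgf gate, 2.13-fold higher.

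Other genes of the processes in which the members act were mostly less than 2-fold apart. Of 6 mitophagy genes at 10 CPM, none was 2-fold apart in either gate, with Map1lc3b at 878 against 782 CPM, Sqstm1 at 358 against 245 CPM, Phb2 at 187 against 216 CPM and Pink1 at 76.1 against 102 CPM in the Npy-Pgf gate. Of 5 collagen-modifying enzymes Plod2 was higher and P3h1 lower in the Npy-Pgf gate and none was 2-fold apart in the Apln-Kit-Tnfrsf9 gate. Plod1 was 187 against 120 CPM, P4hb 137 against 109 CPM and Plod3 38.6 against 60.2 CPM in the Npy-Pgf gate. Of 6 genes around mTORC1 Rptor was higher and Sesn1 lower in that gate, with Rheb, its activator, at 401 against 464 CPM.

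Ddit4 is also known to respond to glucocorticoids and to the integrated stress response, and these lists were examined beside it. The glucocorticoid targets Sgk1 and Tsc22d3 were lower in both gates: Sgk1 was 196 against 507 CPM and Tsc22d3 56.7 against 116 CPM in the Npy-Pgf gate, and 175 against 388 CPM and 57.6 against 126 CPM in the Apln-Kit-Tnfrsf9 gate. Fkbp5 was 19.8 against 22.0 CPM in the Npy-Pgf gate. Of the integrated stress response genes Trib3 alone was at least 2-fold higher in either gate, against 5.19% and 1.56% of all genes. Atf4 was at 157 against 156 CPM and Ddit3 at 45.9 against 23.2 CPM in the Npy-Pgf gate. The dissociation-responsive genes summed to 7199 CPM in the Npy-Pgf gate and 11359 CPM in other LECs, and Jun was at least 2-fold lower in the gate and the heat-shock gene Hspa1a at least 2-fold higher. Their part in the Ddit4 level was not tested.

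Summed melanocytic, stromal and leukocyte markers were within 2-fold of the rest in both gates. In the Npy-Pgf gate melanocytic markers summed to 119 CPM against 134 CPM in other LECs, and stromal markers to 124 against 96.1 CPM, with 3 of 7 stromal markers at 0. Leukocyte markers were 12.07 against 11.98 CPM with 2 of 6 at 0. Blood endothelial markers were lower in this gate, at 73.4 against 220 CPM, with Esam, Emcn and Mcam at least 2-fold lower, and LEC markers summed to 3389 against 4200 CPM. In the Apln-Kit-Tnfrsf9 gate melanocytic markers were 22.1 against 24.0 CPM, stromal markers 9.66 against 14.3 CPM with 2 of 7 at 0, and leukocyte markers 25.8 against 14.9 CPM with 2 of 6 at 0, where Coro1a, the only leukocyte marker at 10 CPM, was over 2-fold higher. The part of these markers in the results was not tested.

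Elsewhere in BEC the genes were mostly level or low, and each had its own pattern. In the venous gate (Ackr1, Selp, Sele, Vwf; 300 cells) Ndrg1 was 314 against 140 CPM, a ratio of 2.24 (2.13 to 2.35), the only member at least 2-fold higher where 5.34% of all genes were. Ankrd37 was 25.5 against 63.4 CPM in that gate, a ratio of 0.402 (0.340 to 0.472), the only member at 10 CPM at least 2-fold lower where 4.26% of all genes were. Egln3 was 2.78 against 8.49 CPM, under the 10 CPM minimum. The rest included the Apln-Kit-Tnfrsf9 cells, and BEC-gated cells outside that gate held 41.7 CPM of Ankrd37 and 2.84 CPM of Egln3. Ankrd37 there was less than 2-fold above the venous gate. Ddit4 was 139 against 94.9 CPM, a ratio of 1.47 (1.37 to 1.58).

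In the arterial gate (Gja5, Aqp7, Sema3g, Bmx; 41 cells) none of the members was at least 2-fold higher, against 12.3% of all genes, and Ankrd37 was lower, at 5.78 CPM (4 UMIs, all in 1 cell) against 60.6 CPM, where 9.88% of all genes were. Ddit4 reached 172 against 98.1 CPM, a ratio of 1.75 that rests on 119 UMIs. In the Npr3-Vegfc-Dkk2 gate (384 cells) none was at least 2-fold higher, against 0.796% of all genes, and Egln3 had 4 UMIs, 0.505 against 8.95 CPM. In the Aplnr-Ramp3 gate (417 cells) none was higher, against 0.453%, while Bnip3 (6.11 against 18.8 CPM) and Ankrd37 (31.9 against 64.4 CPM) were at least 2-fold lower, against 1.42%. In cycling BEC (251 cells) none was higher, against 6.94%, and Bnip3 was lower, at 8.32 against 18.2 CPM, against 2.57%. The rest in each of these comparisons included the Apln-Kit-Tnfrsf9 cells. BEC-gated cells outside that gate held 11.6 CPM of Bnip3 and 41.7 CPM of Ankrd37. These were less than 2-fold above Bnip3 in the Aplnr-Ramp3 and cycling gates and Ankrd37 in the Aplnr-Ramp3 gate. Ankrd37 in the arterial gate was still over 2-fold below.

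In the other LEC subsets no member was at least 2-fold higher than in the rest. In the Cd24a-Scn3a gate (353 cells) none of the 8 was at least 2-fold higher, against 1.16% of all genes, and the sum was 0.985 of the rest (0.957 to 1.01). In the Cd74 gate (Cd74, H2-Aa, H2-Ab1, Vcam1; 101 cells) none was higher, against 4.04%, and the sum was 1.10 of the rest (1.04 to 1.15). In the Tppp3-Igfbp5 gate (414 cells) none was higher, against 1.63%, and Bnip3 was lower, at 35.0 against 88.0 CPM, against 2.43%. Ddit4 was at its highest there, at 214 against 144 CPM, a ratio of 1.48 (1.38 to 1.59), though its interval overlapped that of the 41 arterial-gated BECs. For Bnip3 the rest included the Npy-Pgf cells, and LEC-gated cells outside that gate held 53.3 CPM, less than 2-fold above the Tppp3-Igfbp5 gate.

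The Lsr-Postn-Foxp2 gate and cycling cells were the low end in LEC. In the Lsr-Postn-Foxp2 gate (105 cells) none was at least 2-fold higher, against 3.15%, and 4 were at least 2-fold lower (Bnip3, Ankrd37, Ddit4 and Ndufa4l2), against 5.38%, with Ndufa4l2 at 21.3 against 59.0 CPM (20 of its 31 UMIs in 1 cell), but with a gate of at least 5 UMIs only 1 of the 8 was 2-fold apart. In cycling LEC (137 cells) none was higher, against 7.77%, and Bnip3 (12.8 against 87.0 CPM), Ankrd37 (13.2 against 77.4 CPM) and Ndufa4l2 (6.97 against 61.1 CPM) were at least 2-fold lower, against 5.31%. P4ha1 was level in these cells, at 39.2 against 43.3 CPM. Only 3 cells lay in both the cycling and the Npy-Pgf gate.

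Ordering the 12 gates by level placed the Npy-Pgf gate at the top for 7 of the 8 genes. For Bnip3 the Npy-Pgf gate (472 CPM) was followed by the Cd74 gate (94.1 CPM) and the Cd24a-Scn3a gate (78.3 CPM), whose intervals overlapped, and the Apln-Kit-Tnfrsf9 gate of BEC stood next at 53.2 CPM. For Ankrd37 and P4ha1 the Apln-Kit-Tnfrsf9 gate of BEC was second, at 181 and 75.6 CPM. For Egln3 the same BEC gate (41.8 CPM) stood among the LEC gates, overlapping the Tppp3-Igfbp5 (42.8 CPM) and cycling (35.6 CPM) gates, and the other 5 BEC gates lay between 0.505 and 3.22 CPM. For Ddit4 the order ran from 214 CPM in the Tppp3-Igfbp5 gate to 74.3 CPM in the Lsr-Postn-Foxp2 gate, and most neighbours overlapped.

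At the level of single cells, more LEC-gated than BEC-gated cells held UMIs of several of the 8 genes. With each cell thinned to 5000 UMIs, 7.18% of LEC-gated cells (254 cells) and 1.12% of BEC-gated cells (35 cells) held UMIs of at least 5 of the 8 genes. Cells with none of the 8 made up 11.4% of LEC-gated (10.4 to 12.5%) and 15.5% of BEC-gated cells (14.3 to 16.8%). All 8 were found together in 5 LEC-gated cells and in no BEC-gated cell, where the interval reaches 0.118% and limits only cells with UMIs of all 8 at this depth. Bnip3, Egln3 and Ndufa4l2 were each detected in more LEC-gated than BEC-gated cells. The counts expected from such separate detection rates were not computed, so joint occurrence beyond them was not tested.

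**Figure D5:**
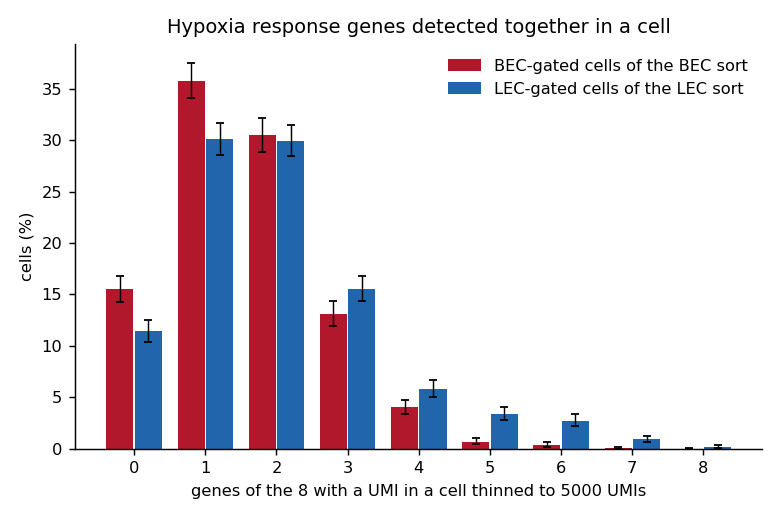
Share of lineage-gated cells, in percent with 95% Clopper-Pearson intervals, by how many of the 8 genes had a UMI after thinning to 5000 UMIs. Both lineages peak at 1 and 2 genes, and 5 or more genes were found in 7.18% of LEC-gated against 1.12% of BEC-gated cells.

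Shares of cells and summed levels did not always run together. Higd1a was detected in 51.3% of thinned BEC-gated and 51.0% of thinned LEC-gated cells although its CPM was 1.84-fold higher in LEC, and Ankrd37 in 14.0 and 12.7% although its CPM was 1.22-fold higher, so no order is read from these shares. For Bnip3 the shares were 5.14% in BEC-gated (4.39 to 5.97%) and 15.2% in LEC-gated cells (14.0 to 16.4%), and without thinning 11.1 and 19.8%. For Ndufa4l2 they were 1.53% (1.13 to 2.03%) and 6.14% (5.37 to 6.98%), beside 0 of 266 thinned melanocytic-gated cells, a type that all but lacked the gene. No other member had a cell type in these sorts that could be taken to lack it.

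In LEC the genes also varied together from cell to cell. Over the 3537 LEC-gated cells the 28 pairwise Pearson correlations of thinned log counts ran from 0.01 to 0.41 with a median of 0.18, and the highest joined Bnip3 with Ndufa4l2 (0.41) and with Higd1a (0.40). Over the 3131 BEC-gated cells they ran from -0.02 to 0.21 with a median of 0.04, and the highest joined Egln3 with Ankrd37 (0.21). These cells share a library and, after thinning, a depth, the BEC counts are sparser, and the correlations are descriptions only. Ddit4 took part in the lowest pairs of both lineages, with P4ha1 in LEC (0.01) and with Higd1a in BEC (-0.02).

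The same picture came from ranking cells by the other 7 genes. Among LEC-gated cells the 11.1% with most UMIs of the other 7 held 76.3% of the thinned Ndufa4l2 UMIs, and the corresponding cells (10.5 to 10.6%) held 58.0% of Bnip3 and 54.7% of Ankrd37. For Ddit4 it was 13.3% of UMIs in 10.8% of cells, close to an even spread. Among BEC-gated cells Egln3 stood out with 66.4% of its UMIs in the 14.2% of cells highest for the other 7, and every other member was at 37.6% or less.

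Genes outside the set that most resembled it were found by correlating each gene at 50 CPM or more with the summed members across gated cells. In LEC, over 3103 genes, the 8 most alike were Lgals3 (0.40), the lactate exporter Slc16a3 (0.40), Pkm (0.39), Mif (0.38), Npy (0.37), Tpi1 (0.37), Pgf (0.36) and Ero1l (0.36). In BEC, over 3020 genes, they were Pgf (0.23), Adm (0.19), Mif (0.16), Tnfrsf9 (0.16), AA467197 (0.15), Tpi1 (0.15), Cd63 (0.15) and Lgals3 (0.14). The lists shared 4 genes, which is 50% of each: Lgals3, Mif, Pgf and Tpi1. Npy, Pgf and Tnfrsf9 also served as gate markers above.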

How the data were processed

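UMI counts per gene and cell were taken from 1 matrix deposited by the authors (28692 genes, 7635 cells); Cell Ranger (2.1.1) and the mm10 build are named in the submitters' processing notes. No source used here gives the authors' cell filter; no cell exceeded 10% mitochondrial UMIs, a filter of 1000 UMIs and 500 genes removed 0 cells, and doublets were not called. Raw counts were summed over each set of cells and scaled to that set's total (CPM). Because each sort is 1 sample, no p-value or standard error is given. The members, gene lists, gates and named genes were chosen with earlier results of these data known. The named genes were all 8 members, all genes of the HIF and paralog lists, the 4 members of each other list with the highest mean CPM, and the 8 genes most alike per lineage. Lineage gates needed at least 2 markers, 3 UMIs and a 3-fold excess over the other lineage's markers after seeded thinning of every cell to 5000 UMIs, and left out cells with 10 UMIs of melanocytic or stromal markers or 5 of leukocyte markers. Subset gates needed at least 2 markers, 3 UMIs and the 80th percentile of the lineage. Log2 ratios used a pseudocount of 1 CPM. Correlations were of log2(1 + thinned UMIs). Positions are from GENCODE M21 and promoters from RefSeq. The ratio, interval and gate steps were tested on simulated data. Python 3.11.15, numpy 2.4.6, scipy 1.17.1, pandas 2.3.3 and matplotlib 3.10.9 were used.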

Additional observations from a re-analysis of the deposited data

Results flagged for a closer look

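Higd1a stood on opposite sides of 1 in the cycling gates of the lineages: its level in cycling cells over the rest of the lineage was 1.07 in BEC (204 against 191 CPM) and 0.594 in LEC (216 against 364 CPM). The difference between the lineages was not tested, since each sort is 1 sample.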

How the results depend on the processing

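No paired analysis was possible because the cell names carry no library number, and for the same reason no library could be left out. Over 10 alternatives 7 of the 8 members kept a positive log2 ratio of LEC over BEC; P4ha1 lay between -0.15 and 0.06. The count of members at least 2-fold higher in LEC was 4 or 5 under each alternative, and 4 under size factors, where Ndrg1 passed below 2-fold. The summed log2 ratio was 1.06, and it was 0.985 with size factors, 1.04 as a mean over cells, 1.01 in own-lineage cells, 1.03 with thinned cells and, in alternatives chosen after seeing the data, 0.859 without the Npy-Pgf and Apln-Kit-Tnfrsf9 gates and 0.992 with stromal-gated cells kept. The Npy-Pgf gate's 2.01 was 2.12 at the 90th percentile, 2.16 at 5 UMIs, 2.11 with size factors and, also chosen later, 1.89 for Npy alone (258 cells) and 1.74 for Pgf alone (423 cells). The Apln-Kit-Tnfrsf9 gate's 0.733 was 0.943 at the 90th percentile and at 5 UMIs, and 0.779 with size factors. The counts of members at least 2-fold apart in either direction moved in small gates. The arterial count of 1 was 3 at 5 UMIs and as a mean over cells and 2 without cycling cells. The Npr3-Vegfc-Dkk2 count of 0 was 1 at the 90th percentile, at 5 UMIs and without cycling cells. The Aplnr-Ramp3 count of 2 was 1, and the cycling BEC count of 1 was 2, without cells under 0.5% mitochondrial UMIs. The Cd24a-Scn3a count of 0 was 1 as a mean over cells and without cycling cells, and the Lsr-Postn-Foxp2 count of 4 was 1 at 5 UMIs. The cause of these moves was not tested. Depth limits Egln3 and Ndufa4l2 in the 5 BEC gates other than Apln-Kit-Tnfrsf9, where each rests on under 40 UMIs.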
